A study of Mus musculus with 24 samples.

Results

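Microglia are the resident macrophages of the brain, and 9 of the genes most often used to recognise them were followed here in the mouse dorsal hippocampus. They were Cx3cr1, Csf1r, C1qa, C1qb, C1qc, P2ry12, Tmem119, Trem2 and Aif1, each taken from the expression table by its symbol. All 9 were found, among 19661 genes in the table, and all 9 passed a filter at a mean level of 1 RPKM that left 12399 genes for testing. RPKM divides a gene's reads by its length and by the size of the library, so levels can be set side by side between genes. The libraries came from 24 mice, 1 per animal, in 4 groups of 6. Wild-type mice of the strain C57BL/6J were taken either from the home cage or 30 minutes after training in object location memory, a task in which the mouse explores objects at set places. The same pair of conditions was measured in Baf53b+/- mice, which carry 1 mutant allele of Actl6b on the background named B6J.129S6-Actl6b<tm1Grc>. Actl6b encodes BAF53b, a neuronal subunit of the BAF chromatin remodelling complex. The strain named for the heterozygotes differs from that of the wild type, so strain and allele cannot be told apart in any genotype comparison. Home cage mice were the controls for training, and the parts of the training experience cannot be told apart.

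Microglia depend on signals from other cells. The receptor encoded by Csf1r binds CSF1 and interleukin 34 and keeps microglia alive, and the fractalkine receptor encoded by Cx3cr1 binds CX3CL1, a ligand made by neurons. P2ry12 encodes a receptor for ADP with which microglial processes find sites of injury, Trem2 a lipid-sensing receptor that signals through the adaptor TYROBP, Aif1 the actin-binding protein IBA1, and Tmem119 a membrane protein of resident microglia. C1qa, C1qb and C1qc encode the chains of C1q, the protein that starts the classical complement cascade and that has been tied to the removal of synapses. In the brain its main source is the microglia.

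The depth of the libraries, recovered from steps in the low RPKM values, was 34.47 M reads at the median, the shallowest holding 28.43 M and the deepest 46.88 M. Actl6b had group means of 51.3 and 50.8 RPKM in wild type (home cage, trained) and of 30.0 and 28.3 RPKM in heterozygotes, with no overlap between genotypes. In 6 libraries, called choroid-rich here, transcripts of the choroid plexus, the epithelium that makes cerebrospinal fluid, were far above the others. Their level of Ttr, its most abundant transcript, was 1213 to 4572 RPKM, against 7.775 to 288.3 RPKM in the other 18. These 6 were 1 library of each wild-type group and 2 of each heterozygous group, and results that rest on them are given with and without them. By the Y-linked gene Ddx3y, 3 of 6 animals were male in each group except the heterozygous home cage group, where 5 of 6 were. The labels do not say which of the 4 sequencing pools held which animal.

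C1q transcripts stood highest. Over the 24 animals the mean level was 42.1 RPKM for C1qa (SD 3.56), 36.4 for C1qb (SD 2.28) and 29.0 for C1qc (SD 1.81). The receptor genes followed, with 24.7 RPKM for Csf1r (SD 1.41), 22.3 for P2ry12 (SD 1.61) and 15.0 for Cx3cr1 (SD 0.956). Tmem119 at 8.89 RPKM (SD 0.519), Trem2 at 6.63 (SD 0.671) and Aif1 at 2.66 (SD 0.371) were lowest. This order held within single animals. Each gene exceeded the next one down in 24 of 24 animals, except that Csf1r exceeded P2ry12 in 23 of 24. Across animals the ranges of neighbouring genes overlapped except between P2ry12 and Cx3cr1, between Cx3cr1 and Tmem119, and between Trem2 and Aif1. C1qa was higher than 88.3% of the tested genes and Aif1 higher than 16.3%. For Aif1, each kilobase of the gene was covered by 70.8 to 161 reads, and for C1qa by 1220 to 2170.

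**Figure D1:**
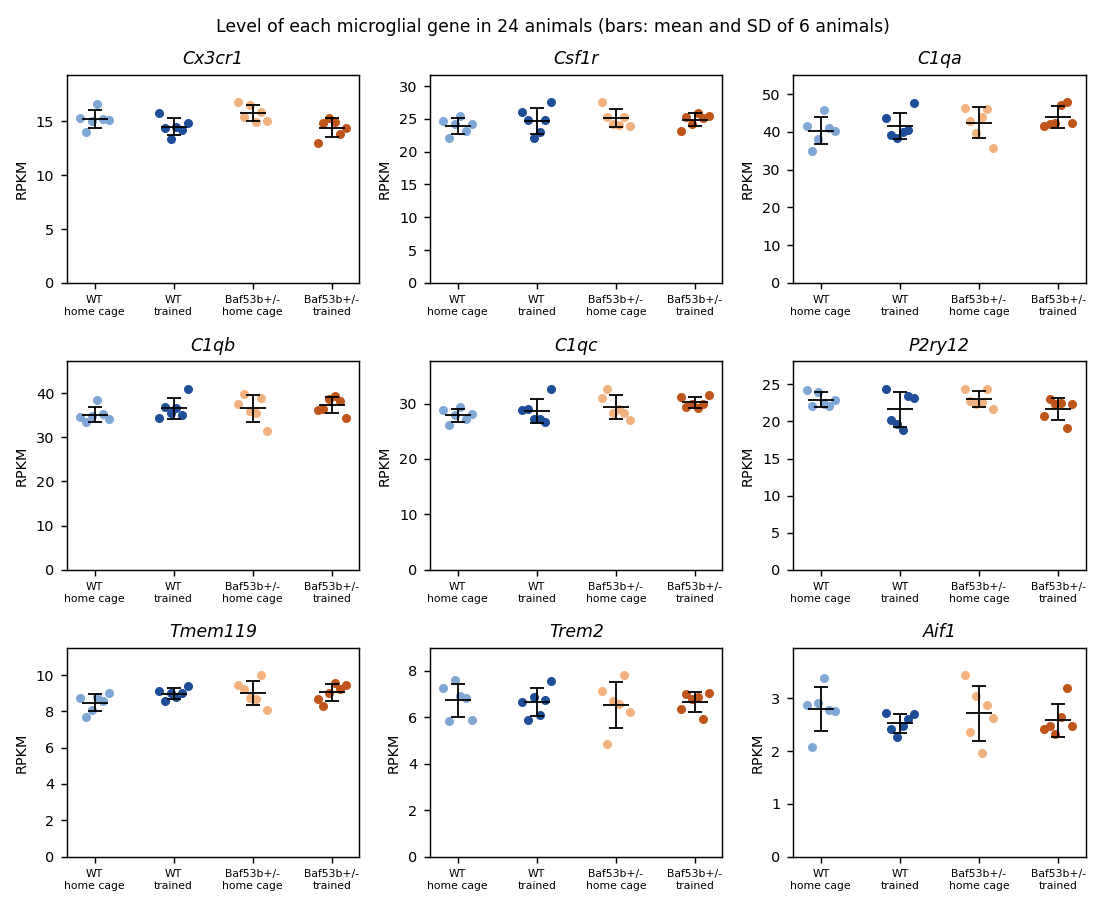
Level in RPKM (vertical axes, from 0) of the 9 microglial genes in each of the 4 groups; each point is 1 animal and the bars give the mean and SD of 6 animals. For every gene the 4 groups overlap, as with Cx3cr1, which spans 12.99 to 16.84 RPKM over all 24 animals.

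The members lie on 7 sites of the genome, which are given here in the mm9 build as in the deposited table. The C1q genes form a cluster of 18.7 kb on chromosome 4, with C1qb at chr4:136436061-136442092, C1qc at chr4:136445717-136448829 and C1qa at chr4:136451831-136454759. Cx3cr1 is at chr9:119957811-119977400, Trem2 at chr17:48485726-48491598 and Aif1 at chr17:35307937-35312946. Tmem119, at chr5:114243738-114250361, is on the chromosome of the mutated Actl6b, 23.7 Mb away. P2ry12, at chr3:59020193-59066753, lies within the span of Med12l, a Mediator subunit gene. The library kit named in the labels does not mark strand, so reads of overlapping genes could not be told apart by strand. Med12l itself stood between 4.45 and 6.29 RPKM over the 24 animals.

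Promoters are shown because several of these genes varied together between animals, as described further on. Any link between promoter letters and that co-variation was not tested. RefSeq's table of promoters (GRCm38.p6) held 6 of the 9 members, Cx3cr1, C1qb, C1qc, P2ry12, Trem2 and Aif1. Both strands of the 250 bases before each start were searched for GAGGAAG, a core bound by PU.1, the factor that sets macrophage identity. It was found in 2 of 6, C1qc and Trem2, and in 10.6% of the 32851 promoters of the table. The windows below are written 5′ to 3′ on the gene's strand with the match in capitals, which is read on the other strand.
C1qc, 194 bases before the start, chr4:136893092-136893118, minus strand: acggcagacaCTTCCTCattttggcac
Trem2, 41 bases before the start, chr17:48346350-48346376, plus strand: gcctcctttcCTTCCTCcctccctcac
CTANNNNTA, the outer letters of the site bound by MEF2 factors, was found in 3 of 6 members, Cx3cr1, C1qc and P2ry12, and in 19.0% of all promoters. N stands for any base, and the capitals again mark the match. The match shown for Cx3cr1 is read on the gene's strand, and those for C1qc and P2ry12 on the other strand. MEF2 sites carry A or T in the middle, and 0 of the 4 matches had only A or T there.
Cx3cr1, 67 bases before the start, chr9:120068345-120068373, minus strand: gtcacagcatCTAAAGATAgggtaccaca
C1qc, 65 bases before the start, chr4:136892961-136892989, minus strand: aaaggggatgTAGGGTTAGggtgctgtgg
P2ry12, 19 bases before the start, chr3:59262986-59263014, minus strand: tcctttttttTAGGGCTAGtatgtcttta
The match in Cx3cr1 overlaps a second one, shifted by 1 base, on the other strand. TGANTCA, bound by AP-1, was found in Trem2 alone of the 6 (6.7% of all promoters), and GGAANNGAA, a joint site of PU.1 and IRF factors, in none of them (7.0%). For Cx3cr1, C1qc, Trem2 and Aif1 the last of the 250 bases lie within a transcript on the gene's strand. Matches near the start of these genes may therefore lie in transcribed sequence. A match describes these letters only, and the expression data hold no measure of binding.

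Training moved the microglial genes little in wild-type mice. None of the 9 members passed the test (limma on log2(RPKM + 0.5), Benjamini-Hochberg adjusted p under 0.05 over all genes), and none had an unadjusted p under 0.05, while 1.08% of all tested genes passed and 11.07% had an unadjusted p under 0.05. The median log2 difference was 0.03 over the members and 0.01 over all tested genes. No member had groups of 6 that did not overlap, against 1.24% of all tested genes.

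Cx3cr1 ranged from 13.98 to 16.62 RPKM in wild-type home cage mice (median 15.19) and from 13.37 to 15.77 after training (median 14.40). In heterozygotes it ranged from 14.95 to 16.84 RPKM in the home cage (median 15.66) and from 12.99 to 15.37 after training (median 14.67). The trained groups lay lower by the median in both genotypes, and the ranges overlapped in both. The log2 difference was -0.07 ± 0.0442 (SE) in wild type (limma adjusted p = 0.598) and -0.13 ± 0.0442 in heterozygotes (adjusted p = 0.252, unadjusted p = 0.00834). Averaged over both genotypes it was -0.10 ± 0.0312, with a 95% interval of -10.64% to -2.29% (limma adjusted p = 0.0811). This did not pass. It passed once a choroid plexus score, the mean log2 level of that tissue's markers, entered the model (adjusted p = 0.0430), without trained wild-type animal 2403 (0.0463) and without home cage wild-type animal 2404 (0.0481), and not without the 6 choroid-rich libraries (-0.07, adjusted p = 0.364). The training differences of the genotypes differed by -0.06 ± 0.0625 (limma interaction, adjusted p = 0.985).

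P2ry12 ranged from 22.04 to 24.30 RPKM in wild-type home cage mice (median 22.63) and from 18.79 to 24.42 after training (median 21.72). Its range in heterozygotes was 21.72 to 24.44 RPKM in the home cage (median 22.67) and 19.17 to 23.07 after training (median 22.40). Trained animals spread more widely downward, with 3 of the 6 trained wild-type mice at or below 20.25 RPKM. Averaged over genotypes the log2 difference was -0.09 ± 0.0398 (limma adjusted p = 0.258, unadjusted p = 0.0381). The differences within wild type (-0.09 ± 0.0562, adjusted p = 0.590) and within heterozygotes (-0.09 ± 0.0562, adjusted p = 0.620) did not pass. Without the 6 choroid-rich libraries the difference was -0.03 in heterozygotes and -0.05 on average (limma adjusted p = 0.936 and 0.666). Without trained heterozygote 2429 alone it was -0.05 in heterozygotes (adjusted p = 0.805).

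Csf1r ranged from 22.03 to 25.49 RPKM in wild-type home cage mice (median 24.22) and from 22.03 to 27.53 after training (median 24.88). Heterozygotes had 23.88 to 27.63 RPKM in the home cage (median 24.76) and 23.23 to 25.84 after training (median 25.21). The ranges overlapped in both genotypes. Its training difference was 0.04 ± 0.0468 on the log2 scale in wild type (limma adjusted p = 0.814) and -0.01 ± 0.0468 in heterozygotes (adjusted p = 0.954), and the 95% interval of the average ran from -3.70% to 5.86%.

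C1qa ranged from 35.06 to 45.90 RPKM in wild-type home cage mice (median 40.70) and from 38.39 to 47.68 after training (median 40.20). In heterozygotes it lay between 35.82 and 46.35 RPKM in the home cage (median 43.44) and between 41.45 and 48.00 after training (median 42.37). C1qb had 33.51 to 38.44 RPKM (median 34.70) and 34.33 to 41.04 (median 36.13) in the wild-type groups, and 31.45 to 39.84 (median 36.77) and 34.48 to 39.35 (median 37.28) in the heterozygous groups, home cage first. These groups overlapped in every comparison. C1qc had 26.11 to 29.30 RPKM (median 28.03) and 26.74 to 32.67 (median 28.01) in wild type, and 26.98 to 32.70 (median 28.65) and 29.11 to 31.61 (median 29.97) in heterozygotes. The log2 differences after training, averaged over genotypes, were 0.05 ± 0.0465 for C1qa, 0.04 ± 0.0354 for C1qb and 0.04 ± 0.0325 for C1qc (limma adjusted p = 0.684, 0.602 and 0.630). Their 95% intervals excluded a mean rise of more than 10.45% for C1qa, 8.41% for C1qb and 7.53% for C1qc.

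Tmem119 ranged from 7.707 to 9.028 RPKM in wild-type home cage mice (median 8.661), from 8.566 to 9.417 after training (median 9.002), from 8.105 to 9.983 in heterozygous home cage mice (median 8.99) and from 8.317 to 9.561 in trained heterozygotes (median 9.129). Trem2 had medians of 6.865, 6.691, 6.623 and 6.822 RPKM in the same order, with a full range of 4.835 to 7.790. Aif1 had medians of 2.83, 2.541, 2.756 and 2.473 RPKM, with a full range of 1.971 to 3.437. None of these genes separated the groups. In wild type the training difference was 0.08 ± 0.0449 for Tmem119, -0.02 ± 0.0821 for Trem2 and -0.11 ± 0.0958 for Aif1 (limma adjusted p = 0.547, 0.965 and 0.717). The wide intervals of Aif1, from -19.33% to 6.10%, leave changes of that size undetected at this number of animals.

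In heterozygotes training gave 0 of 9 members past the threshold by limma, with 1, Cx3cr1, at an unadjusted p under 0.05. Of all tested genes 1.03% passed and 10.99% had an unadjusted p under 0.05. Averaged over genotypes, again 0 of 9 passed and 2, Cx3cr1 and P2ry12, had an unadjusted p under 0.05, against 4.17% and 16.82% of all tested genes. The interaction of training and genotype gave 0 of 9 members, and 0% of all genes, past the threshold, and no member an unadjusted p under 0.05 (2.49% of all genes).

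Genotype gave no detectable difference in any member. In the home cage 0 of 9 passed in limma, with 0.00807% of all genes called (Actl6b alone), and after training 0 of 9 with again 0.00807%. No member had an unadjusted p under 0.05 in either condition, against 3.52% and 3.69% of all genes. Averaged over conditions 0 of 9 passed, against 0.0242% of all genes, and 1, C1qc, had an unadjusted p under 0.05, against 4.49%. Its log2 difference, heterozygote minus wild type, was 0.08 ± 0.0325, with a 95% interval of 0.57% to 10.39% higher (limma adjusted p = 0.999). C1qa and C1qb were at 0.08 ± 0.0465 and 0.04 ± 0.0354. Tmem119, on the chromosome of Actl6b, had 0.08 ± 0.0449 in the home cage and 0.01 ± 0.0449 after training (limma adjusted p = 0.999 and 0.998). Groups of 6 that did not overlap were seen in no member, against 0.0565% of all genes in the home cage, 0.226% after training and 1.33% in the training comparison of heterozygotes. In these libraries of whole tissue, fewer microglia and less RNA per microglial cell cannot be told apart.

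**Figure D2:**
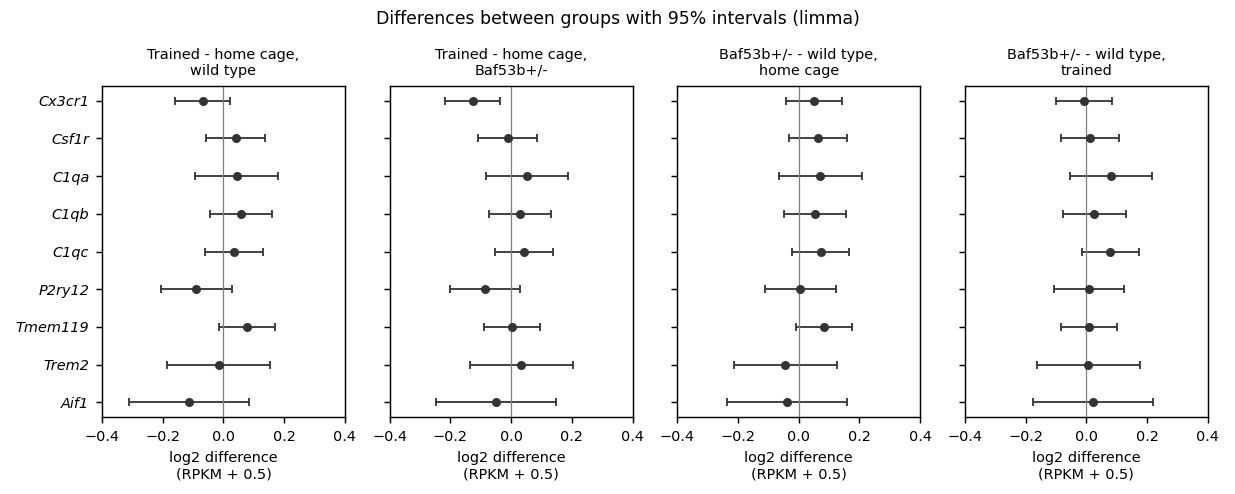
Differences of log2(RPKM + 0.5) for the 9 genes (rows) in the 2 training and 2 genotype comparisons (panels); points are limma estimates and bars 95% intervals. The bars cross 0 except for Cx3cr1 after training in Baf53b+/- mice (-0.13), which did not pass after adjustment.

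The members varied together between animals of a group. Deviations from the group mean were correlated over the 24 animals for each of the 36 pairs of genes, with p from 100000 permutations within groups and adjustment over the 36 pairs. The median Pearson r was 0.452, 35 of 36 pairs were positive, and 16 pairs had an adjusted p under 0.05 (14 by Spearman's rho). Positive pairs were also common in other lists, with 28 of 28 for oligodendrocyte genes, 26 of 28 for endothelial genes and 25 of 28 for astrocyte genes. They were 310 of 378 for other microglial genes and 15 of 28 for neuronal genes. How many pairs of all tested genes would pass was not measured. For comparison, the median r of a member with all tested genes ran from 0.011 (P2ry12) to 0.102 (Aif1). Leaving out any single animal moved the median between 0.355 and 0.480, and without the 6 choroid-rich libraries it was 0.479. All genes of a pair were read in the same library, so shared depth and tissue makeup bear on both.

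The closest pair was C1qa and Tmem119, with r = 0.773 and rho = 0.783 (permutation p = 4e-05 and 1e-05, adjusted 0.00144 and 0.00036, n = 24), and r = 0.715 without the 2 farthest animals. A p of 1e-05 is the smallest these permutations can give. Csf1r and C1qa followed with r = 0.743 and rho = 0.720 (permutation p = 0.00018 and 0.00037, adjusted 0.00324 and 0.0036), and r = 0.691 without the 2 farthest. Csf1r was the member most like the rest, with a median r of 0.624 to the other 8. Csf1r and Cx3cr1, the receptors for the survival signal and for fractalkine, had r = 0.691 and rho = 0.702 (permutation p = 0.00028 and 0.0004, adjusted 0.00336 and 0.0036), and r = 0.639 without the 2 farthest. Without the 6 choroid-rich libraries r was 0.737 for C1qa and Tmem119, 0.811 for Csf1r and C1qa, and 0.591 for Csf1r and Cx3cr1. Cx3cr1 and Aif1 were then the closest pair, with r = 0.831, against 0.583 over all 24 animals. Over all 24, Trem2 stood at the other end. Its r was -0.03 with C1qc, 0.089 with C1qb and 0.306 with C1qa (permutation p = 0.916, 0.739 and 0.215, adjusted 0.916, 0.760 and 0.276), with rho of 0.142, 0.247 and 0.320. Without the 2 farthest animals r was 0.160, -0.09 and 0.220. Home cage heterozygote 2401 weighs on these low values. There Trem2 was at -2.57 within-group SDs from its group mean, C1qc at 1.90 and C1qb at 1.42. With P2ry12, Trem2 had r = 0.534 and rho = 0.563 (permutation p = 0.0028 and 0.00482, adjusted 0.0149 and 0.0248), and r = 0.571 without the 2 farthest. P2ry12 in turn had r = 0.092 with C1qb (rho = 0.061, permutation p = 0.704, adjusted 0.745).

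**Figure D3:**
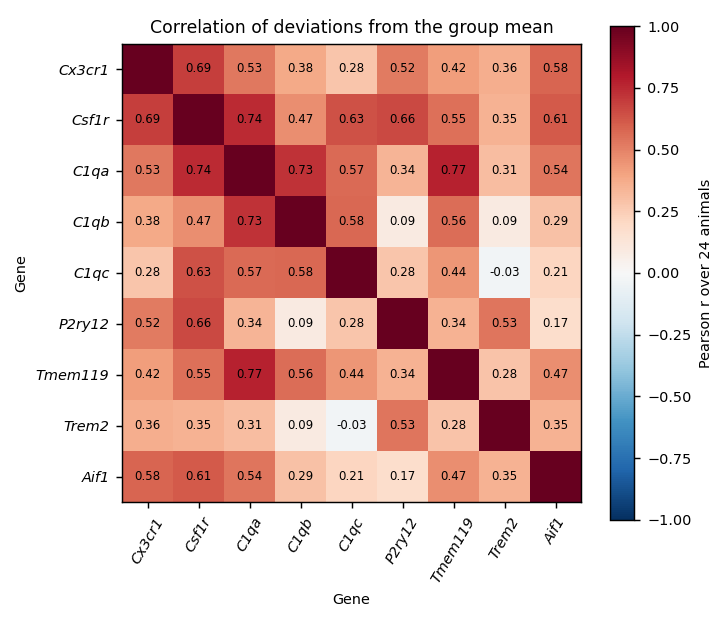
Pearson r over 24 animals (colour scale and printed values) of deviations from the group mean for each pair of the 9 genes, named on both axes. Csf1r and C1qa have warm colours with most genes, up to 0.77 for C1qa and Tmem119, while C1qc and Trem2 are at -0.03.

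Some animals carried this pattern in all genes at once. In 2 animals all 9 members were below the group mean, home cage wild-type mouse 2404 and home cage heterozygote 2424, with mean deviations of -1.31 and -1.17 within-group SDs. In 2 others all 9 were above it, trained wild-type mouse 2436 (1.31) and home cage heterozygote 2400 (1.08). At least 7 of the 9 members were on one side in 13 of 24 animals. Mouse 2404 had 35.06 RPKM of C1qa, the lowest of all 24, and mouse 2436 had 41.04 RPKM of C1qb, the highest. Mouse 2424 is 1 of the 6 choroid-rich libraries, and the other 3 are not.

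**Figure D4:**
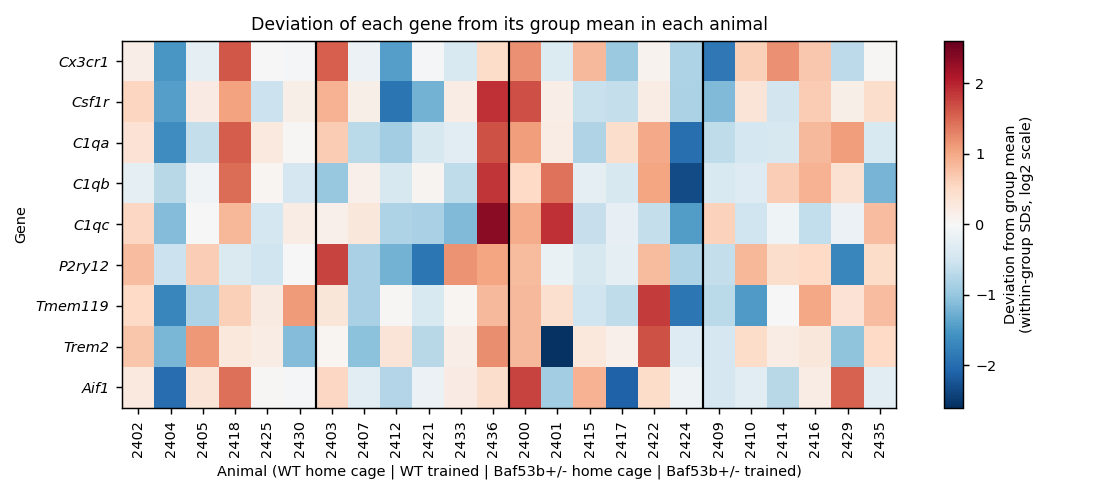
Deviation of each gene (rows) from its group mean in each animal (columns, named by number and divided by group), in within-group SDs on the log2 scale. Columns of one colour show animals in which the genes lie on the same side, such as 2404 and 2424 (all 9 below) and 2436 and 2400 (all 9 above).

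Of the 9 members, 7 varied more between animals than most genes of like level. The within-group SD of log2 values had a median of 0.0897 over the members and 0.0922 over all tested genes, and a median of 0.282 over 8 oligodendrocyte genes. Against genes of like level (mean log2 within 0.5), the share with a lower SD was 85.5% for C1qa, 85.2% for Trem2, 77.2% for P2ry12, 75.4% for Aif1, 67.6% for C1qb, 61.0% for Csf1r and 60.3% for C1qc. It was 47.0% for Cx3cr1 and 36.6% for Tmem119. The median pairwise r was 0.959 for the oligodendrocyte genes, 0.400 for 8 endothelial genes, 0.369 for 8 astrocyte genes, 0.138 for 8 neuronal genes and 0.226 for 28 other microglial genes. These are descriptions, and the lists were not tested against each other.

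Likeness to the mean of the 9 members, each scaled to unit SD, was measured over the 24 animals for all other tested genes. Among the 10 genes with the highest Pearson r were Tst (0.815), Txndc17 (0.757), Tmed9 (0.756), Noc3l (0.754), Aif1l (0.739), Elovl5 (0.735), Unc93b1 (0.732), Arpc5l (0.732) and Fez1 (0.731). The median r over all tested genes was 0.067. Of the 28 other microglial genes tested, 7 were among the top 100 of all 12399 tested genes, a ranking that counts the members too. They included the Fc receptor gene Fcgr3 (0.716), Lpcat2 (0.693), the protease gene Ctss (0.650) and the integrin gene Itgam (0.621), while Olfml3 (-0.21) and Cyth4 (-0.12) had a negative r. Some markers of other cells also moved with the members' mean. The median r was 0.434 over the 28 other microglial genes, 0.435 over 8 astrocyte genes, 0.412 over 8 oligodendrocyte genes, 0.166 over 8 endothelial genes and -0.05 over 8 neuronal genes. All 8 oligodendrocyte genes had a positive r, from 0.324 to 0.490. The astrocyte genes ran from 0.079 to 0.672, with Gja1, Gfap and Aqp4 highest (0.672, 0.595 and 0.542). The neuronal genes ran from -0.40 (Syt1) to 0.264 (Nefl), with Snap25 at -0.32. The part of these markers in the co-variation was not tested. For 8 of the members, the nearest single gene outside the members was Tst for Csf1r (0.869), Gbp3 for C1qb (0.754), Zfp36 for C1qc (0.761), B3galnt2 for P2ry12 (0.781), Sept6 for Cx3cr1 (0.769), Fcgr3 for Tmem119 (0.726), Chaf1a for Trem2 (0.798) and Txndc17 for Aif1 (0.844).

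The chains of C1q are assembled in equal number, and the ratio of their transcripts was taken in each animal. C1qa over C1qb was 1.16 ± 0.065 (SD, n = 24) with a range of 1.046 to 1.276, and C1qc over C1qb was 0.799 ± 0.0437 with a range of 0.728 to 0.917. C1qa over C1qc was 1.45 ± 0.0957. As a percent of the mean, the SD of C1qa over C1qb was 5.62%, against 8.5% for C1qa and 6.3% for C1qb alone. That of C1qc over C1qb was 5.46% and that of C1qa over C1qc 6.6%, against 6.2% for C1qc alone. The group means of C1qa over C1qb lay between 1.14 and 1.18, which is less than the SD within a group. Within the cluster C1qa and C1qb had r = 0.726 and rho = 0.574 (permutation p = 0.00051 and 0.00811, adjusted 0.00418 and 0.0306), C1qb and C1qc r = 0.578 and rho = 0.404 (permutation p = 0.013 and 0.074, adjusted 0.0335 and 0.107), and C1qa and C1qc r = 0.569 and rho = 0.484 (permutation p = 0.00997 and 0.0323, adjusted 0.0325 and 0.0673). Without the 2 farthest animals these fell to 0.563, 0.329 and 0.362. The flanking genes are ephrin receptor genes, and their r with C1qb was -0.002 for Ephb2 (8.60 RPKM) and -0.14 for Epha8 (0.567 RPKM).

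**Figure D5:**
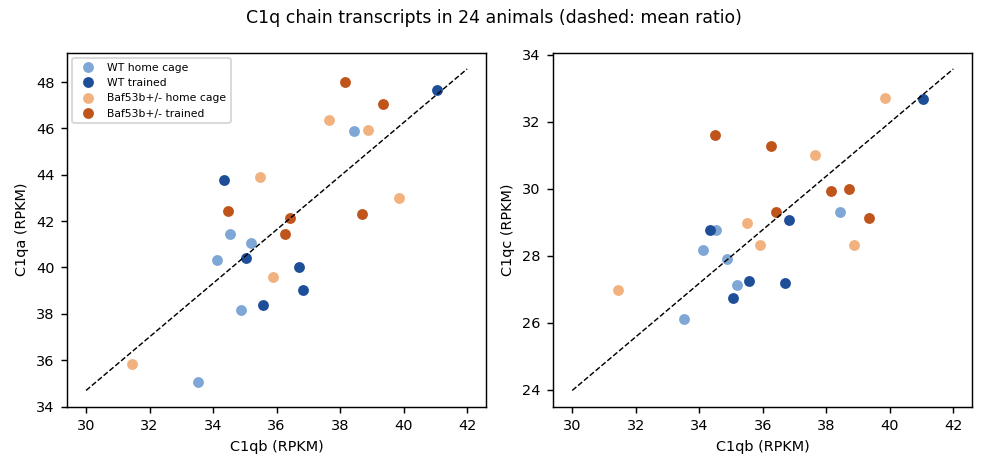
C1qa (left) and C1qc (right) against C1qb, all in RPKM, with 1 point per animal coloured by group; the dashed lines are the mean ratios, 1.16 and 0.799. Points of the 4 groups mix along the lines, and the axes do not start at 0.

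Among 28 other microglial genes tested, 1 fell after training, in heterozygotes (where 1.03% of all genes passed) and on average (4.17%). P2ry13, which encodes a second ADP receptor and lies 5388 bp from P2ry12, also within Med12l, ranged from 6.518 to 7.010 RPKM in heterozygous home cage mice (median 6.718) and from 4.924 to 6.413 after training (median 5.606). In wild type it ranged from 6.009 to 7.609 RPKM in the home cage (median 7.126) and from 5.208 to 6.390 after training (median 5.965). The groups did not overlap in heterozygotes and overlapped in wild type. P2ry13 fell by 0.26 ± 0.0606 on the log2 scale in heterozygotes (limma adjusted p = 0.0342), and the difference in wild type was -0.23 ± 0.0606 (adjusted p = 0.0619). Averaged over genotypes P2ry13 fell by 0.24 ± 0.0429 (limma adjusted p = 0.000867), which passed under all 33 alternatives run (adjusted p from 0.000249 to 0.0266). The call in heterozygotes passed in 21 of 34 alternatives, and without the 6 choroid-rich libraries the difference was -0.20 (adjusted p = 0.508). The call was lost on leaving out any 1 of the 6 home cage heterozygotes, or trained heterozygote 2409, 2414 or 2429 (differences from -0.27 to -0.22, limma adjusted p from 0.0501 to 0.103). It was also lost with sex as a covariate (limma adjusted p = 0.0662), without the filter (0.0547) and with only the compared groups in the model (0.0561). The difference in wild type passed without home cage animal 2404 (adjusted p = 0.0256) or without trained heterozygote 2410 (0.0478). The training differences of the genotypes differed by -0.02 ± 0.0857 (limma interaction, adjusted p = 0.987).

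P2ry12 and P2ry13 had r = 0.442 and rho = 0.467 between animals (permutation p = 0.0489 and 0.0357, adjusted over 4 pairs 0.196 and 0.143), and r = 0.416 without the 2 farthest. Med12l, which spans both, had a log2 training difference of -0.02 ± 0.0438 averaged over genotypes (limma adjusted p = 0.884) and r = -0.06 with P2ry12 (rho = -0.12, permutation p = 0.754, adjusted 0.754). Of the 28 other microglial genes 4 had an unadjusted p under 0.05 in the average, where 16.82% of all tested genes did. Inpp5d, a lipid phosphatase gene, came next after P2ry13 (-0.10 ± 0.0321, limma adjusted p = 0.0956). The median log2 difference of the 28 was 0.00, as over all tested genes.

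Ligands, partners and the rest of the complement system were read from other lists. Of 12 tested ligand and partner genes none passed in limma in any of the 7 comparisons. Cx3cl1, the ligand of the fractalkine receptor, had means of 197.5 and 207.9 RPKM in wild type and of 202 and 213.9 in heterozygotes, home cage first, with an average log2 training difference of 0.08 ± 0.0271 (adjusted p = 0.119, unadjusted p = 0.0086). It was the 1 of these 12 with an unadjusted p under 0.05 in that comparison, where 16.82% of all tested genes had one. Il34, a ligand of the Csf1r receptor, had means of 17.37 and 16.75 RPKM in wild type and 16.19 and 15.36 in heterozygotes, with an average genotype difference of -0.11 ± 0.0387 (limma adjusted p = 0.999, unadjusted p = 0.0107). For that genotype average 2 of the 12 had an unadjusted p under 0.05, against 4.49% of all tested genes. Of 21 other complement genes measured, 11 had a mean under 1 RPKM. C1qbp, which encodes a C1q-binding protein that is mainly mitochondrial, was at 51.8 RPKM (SD 2.17, n = 24), above every C1q chain, and the integrin gene Itgam was at 5.52 RPKM (SD 0.509). Of the 10 tested, 0 passed in limma in any comparison. At an unadjusted p under 0.05 there was 1 of these 10 complement genes in each of 3 comparisons. Cr1l was there for training in wild type (11.07% of all tested genes) and for genotype after training (3.69%). Cfb was there for the average training difference (16.82%).

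Markers of other cells that could carry the same genes were low. The summed level of 10 markers of border macrophages was 3.51 to 7.30 RPKM over the 24 animals. Of these 10, 9 had a mean under 1 RPKM. Of 16 listed markers of blood leukocytes and red cells 14 were measured, and they summed to 1.25 to 2.69 RPKM. The haemoglobin genes of that list had no entry. The 9 members summed to 168 to 207 RPKM, and how much of this came from such cells was not tested. By group the border macrophage sum was 3.83 to 4.95 and 3.58 to 6.47 RPKM in wild type and 3.51 to 7.30 and 4.13 to 6.68 in heterozygotes, home cage first. Of 20 genes of reactive microglia 14 had a mean under 1 RPKM and none of the 6 tested passed in limma in any comparison. Lpl had an unadjusted p under 0.05 for training in wild type (11.07% of all tested genes did) and on average (16.82%). Gpnmb had one for genotype after training (3.69%) and on average (4.49%). Each time this was 1 of the 6.

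In the 6 choroid-rich libraries the members' sum was 172 to 199 RPKM (median 183), and in the other 18 it was 168 to 207 (median 189). Cx3cr1 had a median of 14.48 RPKM in the 6 and 14.99 in the other 18, and the ranges overlapped (12.99 to 15.86 and 13.98 to 16.84). As the libraries fall into these clusters, the relation to the choroid plexus score was read within the 18. There 0 of 9 members had an adjusted p under 0.05, the nearest being C1qc with r = 0.570 and rho = 0.643 (permutation p = 0.056, adjusted over 9 genes 0.504), and r = 0.597 without the 2 farthest. As a term of the limma model fitted to all 24 animals, the choroid plexus score had no coefficient past the threshold among the members (lowest adjusted p = 0.262, Cx3cr1), while 3.79% of all genes did. Sex as a term gave none either (lowest adjusted p = 0.996, P2ry12; 0.0887% of all genes).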

How the data were processed

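RNA from dorsal hippocampus of both sides was extracted with RNeasy columns and made into TruSeq RNA v2 libraries, sequenced as single-end reads of 50 cycles on a HiSeq 2000, per the labels' protocols. CASAVA 1.8.2, Bowtie 0.12.8 and the mm9 build are named in the submitters' processing notes. The gene annotation and the counting program are named in none of the sources used here. The authors deposited 1 table of RPKM values, and no read counts were used. Library depth was estimated from the steps of 971 single-exon genes, where 42.3% to 51.6% of low values came out as whole reads within 0.05 reads. The median share over the depths tried was at most 8.3% in any library. As the rest of the low values were not whole reads, no count test was run.

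RPKM values were taken as log2(RPKM + 0.5), which understates changes of low genes, and genes under a mean level of 1 RPKM were left out. limma 3.58.1 (R 4.3.3, empirical Bayes with trend and robust settings) fitted the 4 groups in 1 model, with 7 comparisons and Benjamini-Hochberg adjustment over 12399 genes at 0.05. An error after ± is an SE for a log2 difference and an SD otherwise. Correlations used deviations from group means (numpy 2.4.6, scipy 1.17.1), with two-sided permutation within groups. The model, the permutations and the depth estimate were tested on simulated data. Animals were grouped by their titles. Alternatives covered the pseudocount, the filter, quantile normalization, the limma settings, covariates for choroid plexus and sex, the groups in the model, the 6 choroid-rich libraries, and each animal left out.

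The 9 members and the gene lists were chosen with earlier results of these data known. All members are named in every comparison. Of each other list, up to 4 genes that passed, or else up to 2 of lowest p, could be named, with the 10 genes most like the members' mean and the nearest gene of each member. Actl6b, Ttr and Ddx3y are named as checks. Itgam, Ctss, Lpcat2, Olfml3, Cyth4, C1qbp, Gja1, Gfap, Aqp4, Syt1, Snap25, Nefl, Med12l, Ephb2 and Epha8 stand outside this rule and were chosen after their values were seen. Of the genes this rule names, 1 is not reported here. C1q proteins are not shown, and the promoters of Csf1r, C1qa and Tmem119 were not used here.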

Additional observations from a re-analysis of the deposited data

Results flagged for a closer look

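In 3 groups 1 animal stood apart from the other 5 by more than Dixon's 95% limit of 0.625 for the gap over the range. C1qb was 38.44 RPKM in home cage wild-type animal 2418, with the next highest at 35.19 RPKM. C1qb was also 41.04 RPKM in trained wild-type animal 2436, with the next at 36.82 RPKM. Aif1 was 3.195 RPKM in trained heterozygote 2429, 1 of the choroid-rich libraries, with the next at 2.645 RPKM. Of 48 groups tested 3 were marked, and chance marks about 1 in 20.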

How the results depend on the processing

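No member passed in any of the 7 comparisons under any alternative, except Cx3cr1 in the training difference averaged over genotypes. There the count of members past the threshold was 1 in place of 0 once the choroid plexus score entered the model, and 0 to 1 when single animals were left out. The lowest adjusted p of the 2108 alternative values was 0.0430. Among these, 109 values in 28 of the 63 member comparisons had the opposite sign to the value reported, all of them uncalled, so the direction of small differences is not fixed. Over all 24 animals, 0 of 9 members were related to the choroid plexus score at an adjusted p under 0.05, and 1, Cx3cr1, after quantile normalization (permutation, adjusted p = 0.0498). The median pairwise r lay between 0.329 with group means kept and 0.480 with 1 animal left out. The number of all genes called for training fell from 134 to 65 in wild type, from 128 to 52 in heterozygotes and from 517 to 262 on average at the lowest alternative, and the genotype counts moved between 1 and 5 on average (3 reported) and between 1 and 2 after training (1 reported). P2ry13 in wild type passed in 3 of 34 alternatives. The cause of these moves was not tested. No paired analysis was possible because each animal has a number of its own. The labels do not say whether animals were littermates or which pool held them.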
